A study of Mus musculus with 24 samples.

Results

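The genes described here encode 43 coagulation and complement factors, read from a liver expression array. They were chosen by symbol and not by level: a gene entered if a probe that was not a control carried its name. All 43 were on the array and all 43 passed the filter on dim probes, out of 21331 genes tested. They fall into 8 roles, with 25 genes of coagulation and fibrinolysis and 18 of complement. The array held 70 probes for them, of which 66 passed; 27 members had 1 kept probe and 16 had several, in which case the brightest stood for the gene.

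Coagulation is a chain of serine proteases, most of them made in the liver and secreted as inactive precursors, that ends when thrombin cuts fibrinogen into fibrin. Tissue factor on cells outside the blood starts the chain, the contact factors feed into it, and the protein C pathway and plasmin limit the clot. Complement is a second protease cascade of the plasma, started by antibodies, by lectins or by the alternative pathway, which meets at C3 and ends in a pore built from C5b to C9. Hepatocytes secrete most of both sets of proteins, and some, fibrinogen and C3 among them, belong to the acute phase proteins whose synthesis changes in inflammation.

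Livers came from 24 male C57Bl/6J mice, 6 in each of 4 groups, with 1 single-colour array per mouse. LWT mice express PPARα, a nuclear receptor for fatty acids, in hepatocytes and LKO mice do not, a reading of the 2 codes that rests on the series title; what drove the deletion in LKO mice, which part of the gene it removed and the age of the mice are not given in the sources used here. Each genotype received by gavage either vehicle, 0.5% carboxymethyl cellulose, or 3 mg/kg of CL316243, which activates the beta3 adrenergic receptor. All were fed a standard diet freely under a 12 h light period, dosed at Zeitgeber time 10 h and killed at Zeitgeber time 16 h. The comparisons ask what the agonist did to these transcripts in each genotype, and whether the genotypes differed in that response or with either treatment. Each array is 1 mouse, so errors are those between mice.

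Levels are log2 intensities relative to the 75th percentile of the probes on the same array, so that 0 lies at that percentile and 1 unit is a doubling; changes are differences of such levels. Ppara itself, read by the brighter of its 2 probes, lay at 6.02 to 6.48 in LWT vehicle and 5.37 to 5.74 in LKO vehicle, and at 6.25 to 6.98 against 3.61 to 5.40 with CL316243; neither probe is known to lie in the deleted part. Of 8 hepatocyte markers, 7 were on the array and their summed linear level was 3979 to 6077 times the percentile over all arrays. The summed neutrophil and monocyte markers (8 of 8 kept) spanned 8.39 to 14.3 in LWT vehicle and 12.0 to 32.3 with CL316243, and in LKO 9.41 to 14.0 and 15.7 to 79.8. The highest of these sums belonged to LKO CL316243 replicate 3, which also had the highest Thbd and the lowest F3 level of its group and an array weight of 0.201, limma's estimate of its precision relative to the other arrays. Without that mouse the counts of members called in the 5 comparisons were 21, 19, 4, 1 and 7, against 19, 21, 3, 1 and 8 with it. Over all 21331 genes tested the counts were 8900, 7818, 1526, 296 and 3925 without it, against 8156, 8566, 1152, 252 and 3383. The lowest sum of a treated mouse, 12.0, belonged to LWT CL316243 replicate 4, also on slide 1. That mouse had the lowest Thbd, Fga, Fgb, Fgg, C3, Mbl1, Pros1 and Cpb2 and the highest F3 level of its group. Leaving it out gave 10 members higher and 9 lower with CL316243 in LWT, beside 8547 genes called. In whole liver, fewer cells of a type and less RNA per cell cannot be told apart.

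CL316243 moved coagulation and complement transcripts in both directions. The fibrinogen chain genes and Thbd rose in both genotypes, while Klkb1, F7, Proz, F11 and F13b fell in both, and F3 fell in LKO. In LWT mice 19 of 43 members passed (limma, Benjamini-Hochberg adjusted p under 0.05), 10 higher and 9 lower, beside 38.2% of all genes tested. In LKO mice 21 passed, 14 higher and 7 lower, beside 40.2% of all genes. As a share this is 44.2% and 48.8% of the members, near the background in each case. Over all genes, 19.1% were higher and 19.1% lower in LWT, and 20.7% and 19.4% in LKO. The median log2 change over the members was -0.07 in LWT and 0.07 in LKO, against 0.01 and 0.03 over all genes tested. Without overlap between the 6 treated and 6 vehicle mice were 10 members in LWT, beside 20.3% of all genes, and 11 in LKO, beside 20.8%.

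**Figure D1:**
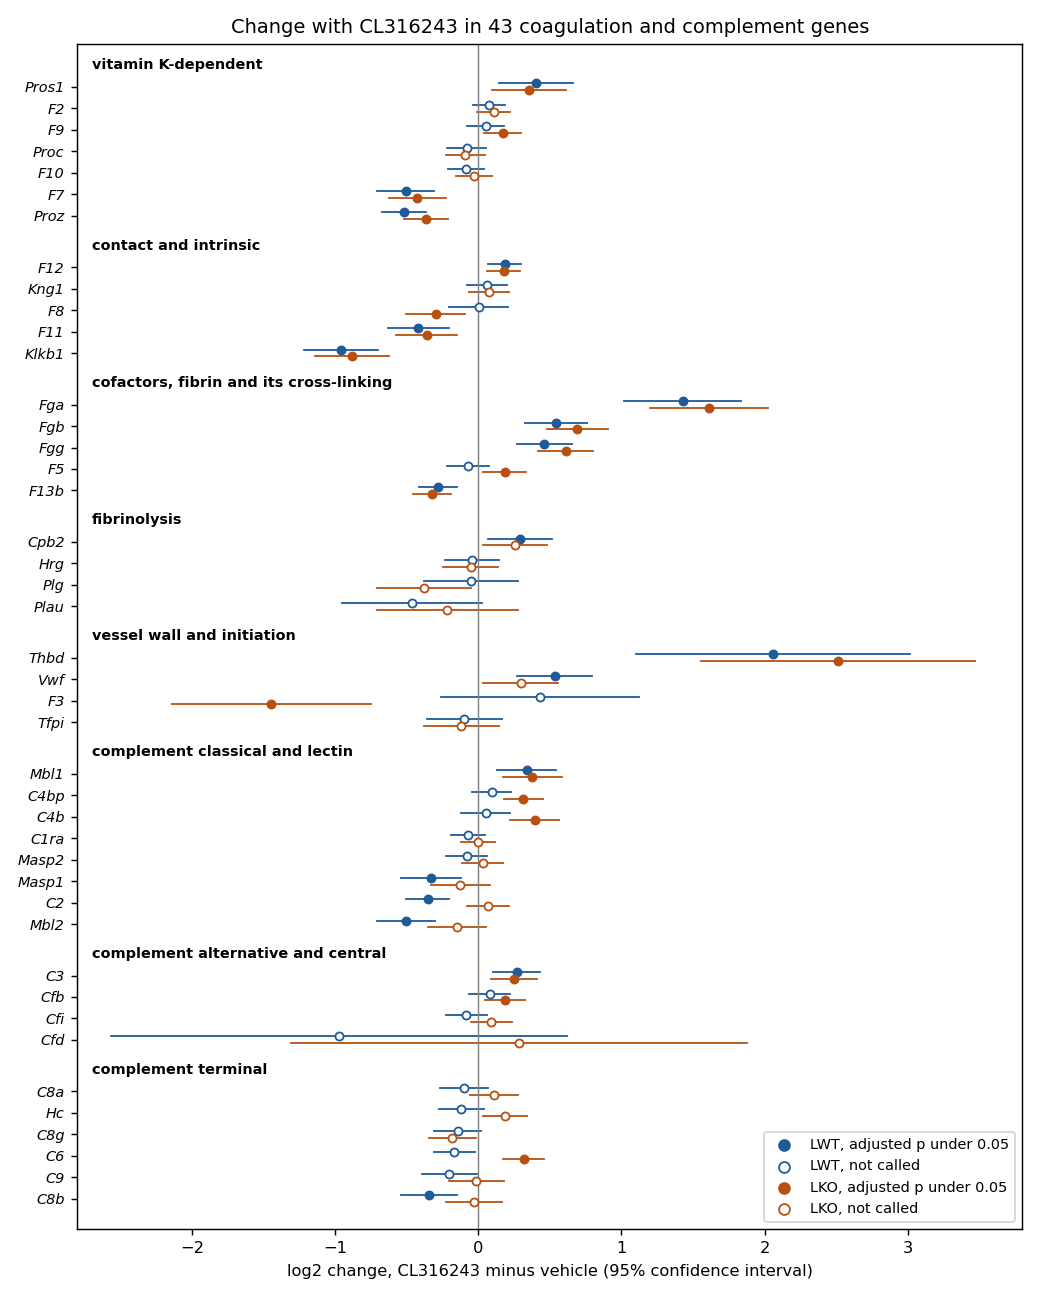
Log2 change with CL316243 (x axis; lines are 95% confidence intervals) of the 43 members, grouped by role, in LWT and LKO mice, 6 mice per group. Filled points have an adjusted p under 0.05; Thbd at 2.06 and 2.51 and Fga at 1.43 and 1.61 lie farthest to the right in both genotypes, Klkb1 at -0.96 lies lowest of the LWT calls, and F3 at -1.45 lowest in LKO.

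In both genotypes and in the same direction, 13 members passed, 8 higher (C3, F12, Fga, Fgb, Fgg, Mbl1, Pros1 and Thbd) and 5 lower (F11, F13b, F7, Klkb1 and Proz). That is 30.2% of the members, against 24.6% of all genes tested. Passing in opposite directions was rare throughout, with 0 of the 43 members and 128 of the 21331 genes tested. A further 6 passed in LWT alone, 8 in LKO alone, and 16 in neither; a pass in 1 genotype does not show a difference between them, which was tested separately. The 16 were F2, F10, Proc, Kng1, Hrg, Tfpi, Plau, Plg, C1ra, Masp2, Cfi, Cfd, C8a, C8g, C9 and Hc.

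The 3 fibrinogen chains come first by role. Fga, Fgb and Fgg encode the chains that assemble into fibrinogen, and lie together on chromosome 3, their starts 42.1 kb apart in RefSeq's GRCm38.p6. The 250 bases before each start are printed in the sense of the gene (RefSeq, GRCm38.p6), since the 3 genes moved together; capitals mark matches to the letters CTGGGAA (the core of the type 2 IL-6 response element), TTGCGCA (C/EBP) and GTTAAT (an HNF1 half-site), searched on both strands.
Fgg, chr3:83007474-83007723, plus strand: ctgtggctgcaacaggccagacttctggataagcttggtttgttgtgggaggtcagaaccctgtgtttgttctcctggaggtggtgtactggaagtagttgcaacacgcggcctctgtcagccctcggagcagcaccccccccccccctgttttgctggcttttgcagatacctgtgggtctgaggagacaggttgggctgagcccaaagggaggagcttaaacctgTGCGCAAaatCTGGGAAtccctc
Fga, chr3:83025903-83026152, plus strand: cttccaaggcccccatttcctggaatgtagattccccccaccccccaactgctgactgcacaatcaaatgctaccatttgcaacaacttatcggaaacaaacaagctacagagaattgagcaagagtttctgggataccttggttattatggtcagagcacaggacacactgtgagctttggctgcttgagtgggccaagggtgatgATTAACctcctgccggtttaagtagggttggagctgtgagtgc
Fgb, chr3:83049864-83050113, minus strand: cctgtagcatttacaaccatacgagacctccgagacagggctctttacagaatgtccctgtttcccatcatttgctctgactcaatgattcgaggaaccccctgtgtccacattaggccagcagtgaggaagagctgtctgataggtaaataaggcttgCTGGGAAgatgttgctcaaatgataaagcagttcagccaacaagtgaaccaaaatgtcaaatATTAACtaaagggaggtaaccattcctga
Before Fgg, CTGGGAA stood at -13 to -7 and TTGCGCA, on the other strand, at -23 to -17, counted back from the start. Before Fgb, CTGGGAA stood at -91 to -85, and GTTAAT, on the other strand, at -29 to -24. Before Fga only GTTAAT was found, on the other strand at -43 to -38. The matches printed do not overlap each other. A match is a description of letters and not a binding site.

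The array read these genes with probes of 60 bases, shown in lower case because they define what was measured (positions in build mm9, as in the array's annotation, which is used for all probe positions).
Fga, base 1498 of the transcript, chr3:82835678-82835737: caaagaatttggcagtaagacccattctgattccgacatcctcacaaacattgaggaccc
Fga, base 3080 of the transcript, chr3:82837260-82837319: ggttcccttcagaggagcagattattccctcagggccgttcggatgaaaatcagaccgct
Fgb, base 1406 of the transcript, chr3:82846334-82846393: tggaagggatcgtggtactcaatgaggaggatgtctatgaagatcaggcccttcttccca
Fgg was read at chr3:82818825-82818884.

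Fga changed most of the 3. In LWT it lay at 6.39 to 6.93 (median 6.58) with vehicle and at 6.91 to 8.54 (median 8.27) with CL316243. Of the treated mice, replicate 4 lay just under the highest vehicle mouse and the other 5 lay above all vehicle mice. In LKO it lay at 6.41 to 6.69 (median 6.48) with vehicle and at 7.82 to 8.50 (median 8.09) with CL316243, with no overlap. Fga rose by 1.43 log2 units in LWT (SE 0.20, limma adjusted p 7.84e-06), a 2.69-fold increase, and by 1.61 in LKO (adjusted p 2.41e-06), a 3.06-fold increase. The effects differed by 0.19 (95% confidence interval -0.40 to 0.77, adjusted p 0.798). Within slides 1, 2 and 3 they differed by 1.12, -0.495 and -0.07. The second Fga probe, dimmer and farther along the transcript, gave 1.60 in LWT and 1.96 in LKO.

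Fgb, the beta chain, ranged from 9.73 to 9.98 (median 9.79) in LWT vehicle and from 9.97 to 10.54 (median 10.45) in LWT CL316243, touching only at replicate 4 of the treated mice. The LKO values were 9.55 to 10.07 (median 9.67) with vehicle and 10.12 to 10.69 (median 10.4) with CL316243, without overlap. It rose by 0.54 in LWT (SE 0.10, adjusted p 0.000278) and by 0.69 in LKO (adjusted p 2.30e-05), or 1.46-fold and 1.62-fold. Fgg, the gamma chain, went from 9.66 to 9.82 (median 9.68) up to 9.92 to 10.34 (median 10.23) in LWT, with all treated mice above all vehicle mice. Its LKO values went from 9.42 to 10.03 (median 9.61) up to 9.98 to 10.47 (median 10.25), where vehicle replicate 6 lay above the lowest treated mouse. It rose by 0.46 in LWT (SE 0.09, adjusted p 0.000429) and by 0.61 in LKO (adjusted p 2.54e-05). Both genes lie near the bright end of the array, where the scaling matters: with quantile normalization the changes were 0.32 and 0.47 for Fgb and 0.26 and 0.40 for Fgg, all still called.

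F13b, the carrier subunit of the enzyme that cross-links fibrin, fell in both genotypes, by 0.28 in LWT (adjusted p 0.0013) and by 0.33 in LKO (adjusted p 0.000362), with no overlap in either. F5, the cofactor that speeds prothrombin activation, ranged from 6.16 to 6.46 (median 6.35) and 6.14 to 6.49 (median 6.23) in LWT vehicle and CL316243. In LKO it ranged from 6.31 to 6.71 (median 6.43) and 6.52 to 6.69 (median 6.65), the treated mice all within the upper part of the vehicle range. Its change was -0.07 in LWT (adjusted p 0.476) and 0.18 in LKO (adjusted p 0.0449), and the LKO call was lost when any of 16 single arrays was left out (0.16 to 0.19).

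**Figure D2:**
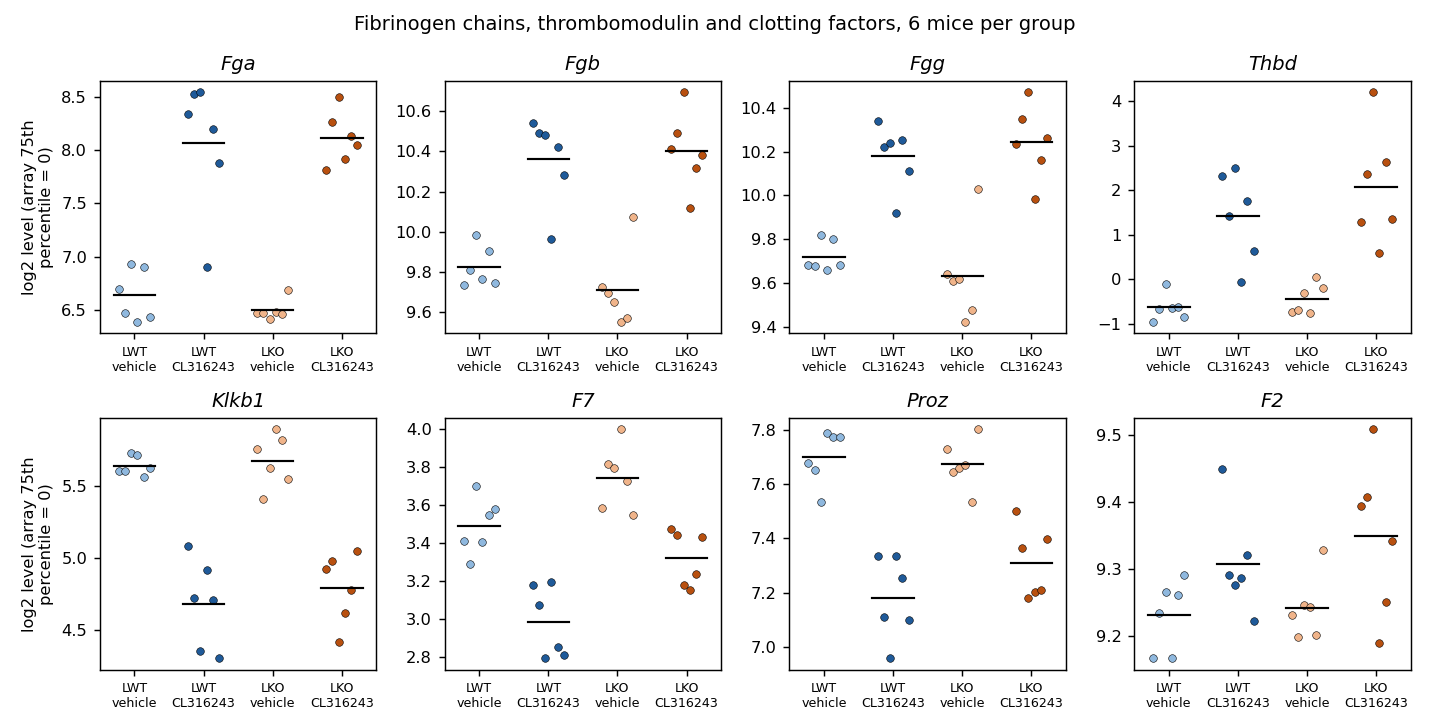
Log2 level (y axis, relative to each array's 75th percentile) of 8 members in each mouse by group; black lines are group means. The fibrinogen chains and Thbd sit higher and Klkb1, F7 and Proz lower with CL316243 in both genotypes, with LWT Fga at 6.39 to 6.93 for vehicle mice and 6.91 to 8.54 for treated mice, while F2 stays between 9.17 and 9.51 in all 24 mice.

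Among the 7 vitamin K-dependent genes, 1 rose and 2 fell in LWT, and 2 rose and 2 fell in LKO. Beside these counts stood 38.2% and 40.2% of all genes tested. F7, the protease that tissue factor activates (chr8:13035287-13035346), ranged in LWT from 3.29 to 3.70 (median 3.48) with vehicle and from 2.79 to 3.19 (median 2.96) with CL316243. The LKO mice ranged from 3.55 to 4.00 (median 3.76) and from 3.15 to 3.47 (median 3.33). The groups did not overlap in either genotype. F7 fell by 29.6% in LWT (log2 change -0.51, SE 0.10, adjusted p 0.000227) while in LKO it fell by 25.6% (-0.43, adjusted p 0.00118).

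Proz encodes protein Z, the cofactor of an inhibitor of factor X (chr8:13075883-13075942). It went from 7.53 to 7.79 (median 7.73) down to 6.96 to 7.34 (median 7.18) in LWT, and from 7.53 to 7.80 (median 7.66) down to 7.18 to 7.50 (median 7.29) in LKO. All treated mice lay below all vehicle mice of their genotype. Proz fell by 30.2% in LWT (log2 -0.52, SE 0.07, adjusted p 1.15e-05), and in LKO it fell by 22.3% (-0.36, adjusted p 0.000502). Pros1, or protein S, the cofactor of activated protein C, rose by 0.40 (adjusted p 0.0138) and 0.36 (adjusted p 0.0265); the LKO call was lost without LKO CL316243 replicate 3 (0.27, adjusted p 0.0797), and also without any of 3 other LKO mice.

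F2, prothrombin, the precursor of thrombin, was not called in either genotype. It ranged from 9.17 to 9.29 (median 9.25) and 9.22 to 9.45 (median 9.29) in LWT vehicle and CL316243, and from 9.20 to 9.33 (median 9.24) and 9.19 to 9.51 (median 9.37) in LKO. The groups overlapped widely. Its change was 0.08 in LWT (SE 0.05, adjusted p 0.294) and 0.11 in LKO (adjusted p 0.124), with the sign turning under quantile normalization (-0.10 and -0.05) and a called -0.14 in LWT in the authors' series table (adjusted p 0.0168).

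Proc, the precursor of the anticoagulant activated protein C, ranged from 7.65 to 7.94 (median 7.82) and 7.58 to 7.89 (median 7.75) in LWT, and from 7.72 to 7.99 (median 7.80) and 7.60 to 7.87 (median 7.75) in LKO. Treated and vehicle mice overlapped in both. Its changes, -0.08 and -0.09, did not pass (adjusted p 0.362 and 0.302), but -0.18 in each genotype passed after quantile normalization (adjusted p 0.0182 and 0.0159). F10, whose active form cuts prothrombin, changed by -0.08 in LWT and -0.03 in LKO, neither called, and by -0.18 in LWT after quantile normalization (adjusted p 0.00549). F9, the protease lacking in haemophilia B, stood at a change of 0.05 in LWT and rose by 0.17 in LKO (adjusted p 0.0332), a call lost when any of 5 LKO mice was left out and after quantile normalization (0.14, adjusted p 0.051).

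Of the 5 contact and intrinsic factors, 1 rose and 2 fell in LWT, and 1 rose and 3 fell in LKO. The shares over all genes tested were 38.2% and 40.2%. Klkb1, plasma prekallikrein, which releases bradykinin from kininogen (chr8:46355052-46355111), had the largest fall called in LWT among the members. It went from 5.56 to 5.73 (median 5.62) down to 4.30 to 5.08 (median 4.71) in LWT. In LKO it went from 5.41 to 5.90 (median 5.69) down to 4.41 to 5.05 (median 4.85). No treated mouse reached any vehicle mouse of its genotype. Klkb1 fell by 48.6% in LWT (log2 -0.96, SE 0.12, adjusted p 3.19e-06) while in LKO it fell by 45.8% (-0.88, adjusted p 1.13e-05), and the effects differed by 0.08 (95% confidence interval -0.29 to 0.44).

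F11, which activates factor IX, fell by 0.42 (adjusted p 0.00257) and 0.36 (adjusted p 0.00759). F12, the factor that activates prekallikrein, rose by 0.18 in both genotypes (adjusted p 0.0124 and 0.0149), though its LWT call was lost after quantile normalization (0.10, adjusted p 0.0752) and both were lost in the authors' series table (0.10 and 0.11, adjusted p 0.103 and 0.0688). F8, the cofactor of factor IX, fell in LKO by 0.30 (adjusted p 0.0197), lost without LKO CL316243 replicate 3 (-0.23, adjusted p 0.0586), and changed by 0.00 in LWT. Kng1, the kininogen that Klkb1 cuts, which has a close relative in Kng2, changed by 0.06 and 0.07 without a call, and turned to -0.18 and -0.15 with calls after quantile normalization (adjusted p 0.00452 and 0.0105).

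Of 4 fibrinolysis genes, 1 passed in LWT and 0 in LKO, where 2 had an unadjusted p under 0.05. All genes tested passed at 38.2% in LWT and 40.2% in LKO. Cpb2, a carboxypeptidase that slows clot lysis, rose in LWT by 0.29 (adjusted p 0.0359), a call lost when any of 6 LWT mice was left out and after quantile normalization (0.20, adjusted p 0.139); its LKO change of 0.26 did not pass (adjusted p 0.0615). Plg, the precursor of plasmin, ranged from 3.43 to 4.31 (median 3.67) and 3.12 to 4.01 (median 3.75) in LWT, and from 3.66 to 4.40 (median 4.05) and 3.25 to 3.89 (median 3.67) in LKO. All of these ranges overlap. Its change was -0.05 in LWT (adjusted p 0.844) and -0.38 in LKO (adjusted p 0.0615), with -0.42 after quantile normalization a call (adjusted p 0.039). A second Plg probe, of another transcript, disagreed: it changed by -0.68 in LWT (adjusted p 0.0321 over 32037 probes) and 0.53 in LKO (adjusted p 0.0869), with a called interaction of 1.21 (adjusted p 0.0387) and a called LKO minus LWT difference under CL316243 of 1.11 (adjusted p 0.00269). Plau, the plasminogen activator urokinase, and Hrg, a plasma glycoprotein that binds plasminogen, were not called in either genotype, with changes from -0.46 to -0.04, though Plau passed in LWT without LKO CL316243 replicate 3 (adjusted p 0.0208) and in a fit of the LWT arrays alone (adjusted p 0.0393).

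Thbd, thrombomodulin, the endothelial receptor that turns thrombin towards protein C (chr2:148230235-148230294), rose most of all members in both genotypes. In LWT it ranged from -0.95 to -0.10 (median -0.65) with vehicle and from -0.07 to 2.50 (median 1.59) with CL316243. In LKO it ranged from -0.76 to 0.04 (median -0.50) and from 0.59 to 4.19 (median 1.85), the highest being replicate 3. The groups did not overlap in either genotype, but treated mice spread widely. Thbd rose 4.17-fold in LWT (log2 2.06, SE 0.46, adjusted p 0.00118) and 5.71-fold in LKO (2.51, adjusted p 0.000179). Without LKO CL316243 replicate 3 the LKO change was 2.09, still called. The interaction was 0.45 (95% confidence interval -0.90 to 1.81, adjusted p 0.785), or 0.03 without that mouse. Within slides 1, 2 and 3 it was 2.78, -0.73 and -0.68. Slide 1 held both LKO CL316243 replicate 3 and the lowest treated mouse of LWT, replicate 4.

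Vwf, the carrier of factor VIII that tethers platelets (chr6:125636551-125636610), went from 0.30 to 0.92 (median 0.57) up to 0.96 to 1.36 (median 1.15) in LWT, without overlap. The LKO mice had 0.67 to 1.13 (median 1.03) and 1.09 to 1.81 (median 1.18), with overlap. It rose by 0.53 in LWT (SE 0.13, adjusted p 0.00187); the LKO change of 0.30 did not pass (adjusted p 0.0664), and the difference of -0.24 between them did not either (adjusted p 0.536). With the mean over its 2 probes the LWT call was lost (0.60, adjusted p 0.0765). Tfpi, the inhibitor of the tissue factor pathway, changed by -0.10 and -0.12 with no call by its brightest probe; of its 3 probes, 1 was called lower in LKO (-0.40, adjusted p 0.0352 over 32037 probes).

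Of 10 endothelial markers, all kept, 2 rose and 1 fell in LWT and 1 rose and 3 fell in LKO, with the summed level at 75.5 to 80.9 and 76.9 to 89.5 in LWT vehicle and CL316243, and at 66.3 to 87.3 and 66.8 to 89.9 in LKO. Lyve1, a marker of sinusoidal endothelium, rose by 1.18 and 2.39, and Pecam1 rose in LWT. Fcgr2b, also a sinusoidal marker, fell by 0.31 and 0.50, and Kdr and Tek fell in LKO. Of the 8 neutrophil and monocyte markers, 3 rose (Retnlg, S100a8 and S100a9) and 1 fell (Ly6g) in LWT, and 4 rose in LKO. Beside both marker lists stood 38.2% of all genes called in LWT and 40.2% in LKO. Of 6 platelet markers 4 were kept and 0 were called by limma in either CL316243 comparison, 0 also at an unadjusted p under 0.05, with Itga2b and Gp1ba under the filter. The part of these cell types in the Thbd and Vwf changes was not tested.

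F3, tissue factor, the membrane protein that starts coagulation (chr3:121437717-121437776), was the 1 coagulation member whose response, by its brightest probe, was called different between genotypes. In LWT it ranged from -1.34 to 0.56 (median 0.13) with vehicle and from -0.58 to 1.14 (median 0.28) with CL316243, with wide overlap. In LKO it ranged from -0.90 to -0.17 (median -0.36) and from -2.87 to -1.22 (median -1.69), with no overlap; replicate 3 was again the extreme mouse. The change was 0.43 in LWT (SE 0.33, adjusted p 0.336), whereas F3 fell by 63.3% in LKO (log2 -1.45, adjusted p 0.00154). The interaction was -1.88 (SE 0.47, adjusted p 0.0199), and -1.68 (adjusted p 0.0271) without LKO CL316243 replicate 3. Within slides 1, 2 and 3 it was -3.55, -0.76 and -1.32. Slide 1 held that mouse and the highest treated mouse of LWT, replicate 4. With normexp background correction the LKO change was -0.92, still called. Under CL316243, the LKO minus LWT difference of F3 was -2.20 (adjusted p 4.96e-05), without overlap, while under vehicle the difference was -0.32 (adjusted p 0.956).

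Across all 43 members, the interaction was called for 3 (6.98% of them, beside 5.4% of all genes tested, 2.06% higher and 3.34% lower), which were F3, C2 and C6, with a median of 0.11 over the members and 0.03 over all genes. C2 and C6 responded in the other direction from F3, higher in LKO relative to LWT. Their sign was the same within each of the 3 slides, as was that of F3.

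C2 encodes the protease of the classical C3 convertase (chr17:34999575-34999634). In LWT it went from 6.38 to 6.56 (median 6.44) down to 5.88 to 6.19 (median 6.16), and all treated mice lay below all vehicle mice. In LKO it ranged from 6.66 to 6.78 (median 6.71) and from 6.55 to 7.002 (median 6.81), where the treated mice spanned the vehicle range. C2 fell by 21.7% in LWT (log2 -0.35, SE 0.07, adjusted p 0.000466); the LKO change was 0.07 (adjusted p 0.478). The interaction was 0.42 (SE 0.10, adjusted p 0.0149), and 0.37 to 0.47 when any 1 mouse was left out. Under CL316243, C2 was 1.60-fold higher in LKO (log2 0.67, adjusted p 3.15e-07), with no overlap. Under vehicle the LKO mice also all lay above the LWT mice, by 0.25, but the test did not pass (adjusted p 0.109); it passed in a fit of those 12 arrays alone (adjusted p 0.0281) and with array weights (0.27, adjusted p 0.008).

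C6, a component of the terminal pore (probe across chr15:4689842-4705241), ranged from 3.69 to 3.90 (median 3.85) and 3.53 to 3.74 (median 3.67) in LWT vehicle and CL316243. In LKO it ranged from 3.76 to 4.12 (median 3.92) and from 4.00 to 4.44 (median 4.27). Treated mice were mostly lower in LWT and mostly higher in LKO, with overlap in each. The change of -0.17 in LWT did not pass (adjusted p 0.0654; -0.21, adjusted p 0.0407, after quantile normalization), and C6 rose by 0.32 in LKO (SE 0.07, adjusted p 0.00106). The interaction was 0.48 (SE 0.10, adjusted p 0.00422), and 0.44 to 0.53 when any 1 mouse was left out. Under CL316243, C6 was 1.52-fold higher in LKO than in LWT (log2 0.60, adjusted p 1.19e-06) without overlap; under vehicle the difference was 0.12 (adjusted p 0.741).

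**Figure D3:**
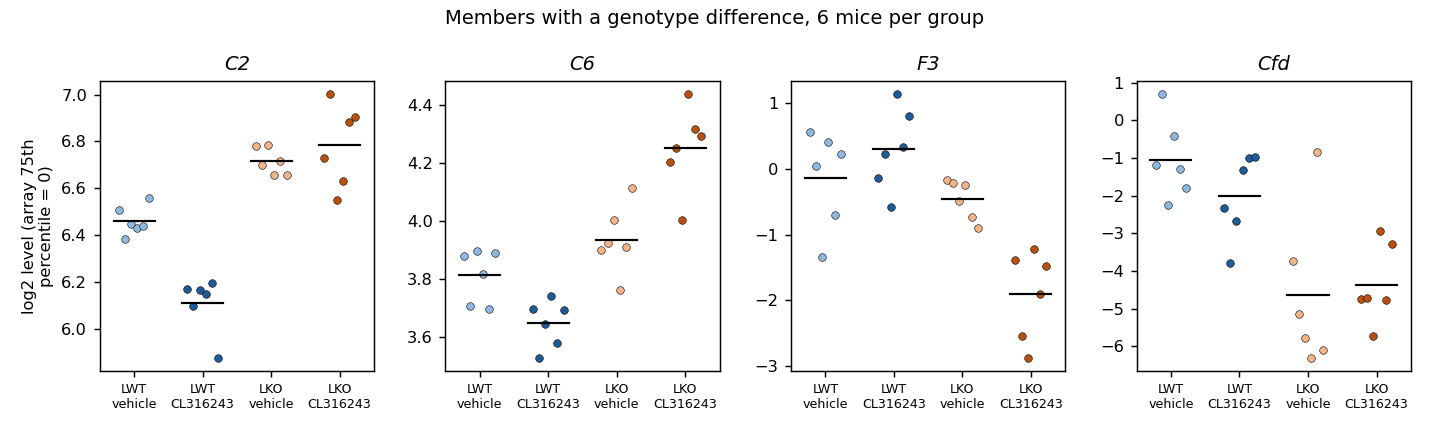
Log2 level (y axis, relative to each array's 75th percentile) of C2, C6, F3 and Cfd in each mouse by group; black lines are group means. In the LKO CL316243 group C2 (6.55 to 7.002) and C6 (4.00 to 4.44) sit above every LWT CL316243 mouse and F3 (-2.87 to -1.22) below; Cfd is lower in both LKO groups with wide spread.

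The classical and lectin pathway genes held 1 rise and 3 falls among 8 in LWT and 3 rises among 8 in LKO. Over all genes tested, 38.2% were called in LWT and 40.2% in LKO. C4b, which C1 and the lectin proteases cut and whose probe may also read its near-identical copy C4a, changed by 0.05 in LWT and rose by 0.39 in LKO (adjusted p 0.000646). C4bp, the plasma inhibitor that binds C4b, changed by 0.09 in LWT and rose by 0.31 in LKO (adjusted p 0.000598), or 0.51 with the mean over its 2 probes. Neither interaction passed, at 0.34 (adjusted p 0.0987) and 0.22 (adjusted p 0.192). The mannose-binding lectins, which start the lectin pathway, moved apart: Mbl1 rose by 0.34 in LWT (adjusted p 0.00947) and 0.38 in LKO (adjusted p 0.00416), and Mbl2 fell by 0.50 in LWT (adjusted p 0.000295) with a change of -0.15 in LKO (adjusted p 0.236; -0.25, called at adjusted p 0.0198, after quantile normalization). C1ra, a protease of C1, and Masp2, which cuts C4 and C2, were not called by their brightest probes, with changes from -0.08 to 0.03; C1ra passed in LWT after quantile normalization (-0.15, adjusted p 0.039). The brightest Masp2 probe starts at base 677 of its transcript. Of 3 Masp2 probes, the one of another transcript, at base 2590 and farther towards the 3′ end of the gene, was called lower in both genotypes. Its changes were -0.30 and -0.34 (adjusted p 0.00152 and 0.000494 over 32037 probes). Which of these transcripts encodes the protease was not examined, so the brightest probe alone does not show that the protease transcript was unchanged.

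Masp1 gave different answers by probe. The gene encodes several proteins of the lectin pathway by alternative splicing, and the array reads it with 5 kept probes spread over chr16:23449609-23490464 on the minus strand. The brightest, which starts at base 4957 of its transcript and lies nearest the 3′ end of the gene, went from 4.81 to 5.14 to 4.33 to 4.94 in LWT and fell by 0.33 (adjusted p 0.0117), with -0.12 in LKO (adjusted p 0.337). The next along the genome, at base 2090, changed by -0.08 in both genotypes. The other 3, which lie farther towards the 5′ end, all rose in LKO. The probe at base 4041 rose by 0.72 (adjusted p 6.98e-06 over 32037 probes), that at base 1927 by 1.55 (5.69e-06) and that at base 2242 by 0.81 (7.31e-06). In LWT the same 3 changed by 0.27 (adjusted p 0.0339), 0.33 and -0.16. The interaction passed for base 2242, at 0.97 (adjusted p 0.000301), and for base 1927, at 1.22 (adjusted p 0.0125). In LWT, Masp1 was the only member with probes called in both directions, and the mean over its probes was 0.00 in LWT and a called 0.57 in LKO, with a called interaction of 0.57 (adjusted p 0.0014).

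**Figure D4:**
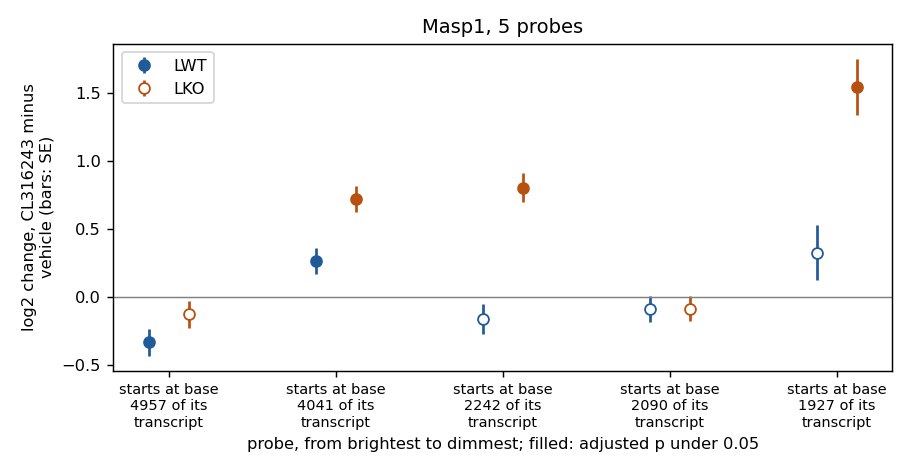
Log2 change with CL316243 (y axis; bars are standard errors) of the 5 kept Masp1 probes, ordered by brightness, in LWT and LKO mice, 6 mice per group. In LKO the probes at bases 4041, 2242 and 1927 are raised (0.72, 0.81 and 1.55), while those at bases 4957 and 2090 are at -0.12 and -0.08.

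C3, where the complement pathways meet (chr17:57343416-57343475), ranged from 10.19 to 10.42 (median 10.28) and 10.38 to 10.65 (median 10.58) in LWT, and from 10.15 to 10.62 (median 10.25) and 10.35 to 10.78 (median 10.55) in LKO. Treated mice were mostly higher, with overlap in each genotype. C3 rose by 0.27 in LWT (SE 0.08, adjusted p 0.00909) and 0.25 in LKO (adjusted p 0.0135). These calls, by the brightest C3 probe, rest on the scaling: quantile normalization gave 0.10 and 0.08 (adjusted p 0.0818 and 0.137). A second, dimmer C3 probe rose by 0.50 in LWT and 0.34 in LKO without quantile normalization. In the fit per probe it was called higher in both genotypes. The change of that probe after quantile normalization is not given here. Cfb, the protease of the alternative C3 convertase, ranged from 7.87 to 8.07 (median 7.97) and 7.90 to 8.15 (median 8.04) in LWT, and from 7.77 to 7.998 (median 7.90) and 7.81 to 8.21 (median 8.10) in LKO. All 4 ranges overlapped. Its change of 0.08 in LWT did not pass (adjusted p 0.387), and the LKO rise of 0.19 (adjusted p 0.031) was lost after quantile normalization (0.09, adjusted p 0.417) and when any of 5 LKO mice was left out. Cfi, which inactivates C3b, was not called, at -0.08 and 0.09, but passed in LWT after quantile normalization (-0.18, adjusted p 0.0147).

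Cfd, factor D, the protease that activates factor B and is made mainly by fat tissue (chr10:79355302-79355361), was the 1 member called between genotypes under vehicle, lower in LKO, beside 1.18% of all genes tested in either direction and 0.778% lower. It ranged from -2.26 to 0.70 (median -1.24) in LWT vehicle and from -6.30 to -0.83 (median -5.46) in LKO vehicle. With CL316243 it ranged from -3.80 to -0.96 (median -1.83) in LWT and from -5.72 to -2.93 (median -4.73) in LKO. The ranges overlapped under both treatments, with LKO vehicle replicate 5 as high as LWT mice. LKO minus LWT was -3.60 under vehicle (SE 0.77, adjusted p 0.0147) and -2.35 under CL316243 (adjusted p 0.0396). The probe was well above background on 6 of 6 arrays in each LWT group but on 2 of 6 in LKO vehicle and 3 of 6 in LKO CL316243, so these sizes rest on values near background, and the gene passed the filter only through the LWT groups, where it is high. With normexp background correction they were -1.54, still called, and -0.96, not called (adjusted p 0.0788). The vehicle call was also lost in a fit of those 12 arrays alone (adjusted p 0.0747), and the CL316243 call in the authors' series table (-1.24, adjusted p 0.052) and when any of 8 arrays was left out, LKO CL316243 replicate 3 among them (-2.07).

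A second Cfd probe cleared background in only 1 vehicle mouse and 0 treated mice of LKO, against 6 and 4 of LWT, so no size is given for it. The agonist itself did not change Cfd detectably, at -0.97 in LWT (adjusted p 0.343) and 0.29 in LKO (adjusted p 0.793). Of 4 adipocyte markers, Adipoq lay under the filter and 0 of the other 3 were called by limma in any comparison, 0 also at an unadjusted p under 0.05. The summed level of these 3 spanned 0.918 to 1.29 in LWT vehicle and 0.926 to 1.06 in LKO vehicle. The part of fat tissue in the Cfd difference was not tested.

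The 6 terminal genes held 1 fall in LWT and 1 rise, that of C6, in LKO, beside 38.2% and 40.2% of all genes. Hc, which encodes C5, ranged from 6.13 to 6.56 (median 6.31) and 6.02 to 6.32 (median 6.19) in LWT, and from 6.07 to 6.27 (median 6.12) and 6.14 to 6.52 (median 6.34) in LKO. Its changes of -0.12 and 0.19 had opposite signs, neither called (adjusted p 0.232 and 0.052), with an interaction of 0.30 (adjusted p 0.107) that passed without LKO CL316243 replicate 3 (0.34, adjusted p 0.0471). C9, which forms the ring of the pore, ranged from 7.42 to 7.79 (median 7.49) and 7.05 to 7.48 (median 7.34) in LWT, and from 7.22 to 7.71 (median 7.42) and 7.25 to 7.61 (median 7.43) in LKO. The LWT groups overlapped between 7.42 and 7.48, with mice of both groups in that span, and the LKO groups wholly. Its change of -0.20 in LWT did not pass (adjusted p 0.0902), but -0.29 did after quantile normalization (adjusted p 0.0181); in LKO it was -0.01. Of the C8 chains, C8b fell in LWT by 0.34 (adjusted p 0.00572) with -0.03 in LKO, C8a changed by -0.10 and 0.11, and C8g by -0.14 and -0.18, the last a call in both genotypes after quantile normalization (-0.24 and -0.28).

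Between genotypes under vehicle, the median LKO minus LWT difference over the members was 0.00, against -0.01 over all genes, and C2 was the 1 member without overlap, beside 1.81% of all genes. Under CL316243, 8 members were called, beside 15.9% of all genes; 6 were higher (C2, C4bp, C6, F5, F7 and Mbl2), beside 7.56% of all genes, and 2 lower (Cfd and F3), beside 8.3%. The median was 0.08, against 0.01 over all genes, and 5 members did not overlap, beside 6.55% of all genes. F5 was 1.30-fold higher in LKO (log2 0.38, adjusted p 0.000586), with every LKO mouse above every LWT mouse. F7 was higher by 0.34 (adjusted p 0.0178), C4bp by 0.24 (adjusted p 0.0151), both lost in a fit of the 12 treated arrays alone (adjusted p 0.0549 and 0.0512), and Mbl2 by 0.30 (adjusted p 0.041). Mbl2 differed by 0.57, 0.34 and -0.02 within slides 1, 2 and 3, the 1 called member result whose sign was not the same on all slides. Its call was lost with slide as a block (adjusted p 0.0548), with no filter on dim probes, with array weights (0.24, adjusted p 0.0885), in a fit of those 12 arrays alone (adjusted p 0.126) and when any of 7 arrays was left out.

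Scaling set the split between rises and falls of these mostly abundant transcripts. Under the 75th percentile 10 members were higher and 9 lower in LWT, and 14 and 7 in LKO. After quantile normalization 7 were higher and 17 lower in LWT, and 10 and 12 in LKO, and the authors' series table, also quantile normalized, gave the same counts. Over all 21331 genes tested, 4075 of 8156 calls in LWT and 4422 of 8566 in LKO were higher under the percentile. After quantile normalization 3692 of 8346 and 4072 of 8646 were higher. The 125 genes with a mean log2 level of at least 9, of which 5 are members, had a median change of 0.14 in LWT and 0.14 in LKO under the percentile, and of -0.07 and -0.05 after quantile normalization. The intensity at the percentile spanned 313.2 to 390.1 for the vehicle mice of LWT, 285.1 to 338.5 for their treated mice, and 271.1 to 373.5 and 282.4 to 341.3 in LKO. Which scaling comes nearer to the RNA content was not tested. Fga, Fgb, Fgg, Thbd, Klkb1, F7, Proz, F11, F13b, Mbl1 and Pros1 kept their direction and their calls in both genotypes under either scaling.

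**Figure D5:**
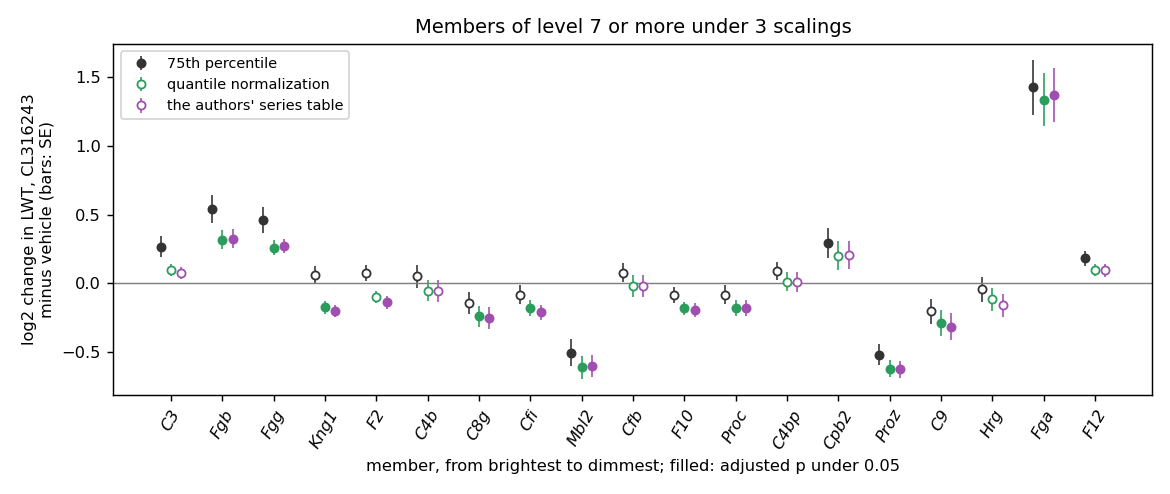
Log2 change with CL316243 in LWT (y axis; bars are standard errors) of the members with a mean level of at least 7, ordered from brightest to dimmest, under 3 scalings; filled points have an adjusted p under 0.05. The points for quantile normalization and the authors' series table lie below those for the 75th percentile, so that C3 is 0.27 under the percentile and 0.10 after quantile normalization, while Fga stays at 1.43 and 1.34.

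Other genes of the same pathways were counted for context, beside 38.2% of all genes called in LWT and 40.2% in LKO. Of 23 coagulation genes outside the members, 18 were tested, of which 8 rose and 5 fell in LWT and 6 rose and 4 fell in LKO. Plaur, the urokinase receptor, rose by 1.70 and 1.96, and Serpind1, heparin cofactor II, fell by 0.89 and 0.73. Tfpi2, a protease inhibitor related to Tfpi, rose by 0.99 in LWT, with -0.05 in LKO, with a called interaction of -1.04. Of 31 further complement genes, 29 were tested, with 6 rises and 3 falls in LWT and 5 of each in LKO. The receptors for C5a rose in both, C5ar1 by 1.13 and 0.88 and C5ar2 by 0.62 and 1.36. Itgam, a chain of complement receptor 3, rose by 0.58 in LWT, and C1rl, a relative of C1r, fell by 0.44 and 0.47.

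Of 18 transcription factors that control secreted liver proteins, 6 rose and 4 fell in LWT and 5 rose and 4 fell in LKO. The shares called over all genes were 38.2% and 40.2%. Stat3, which carries the IL-6 signal to acute phase genes, rose by 1.01 and 1.73, and Cebpd, a C/EBP factor, by 1.38 and 1.46. Prox1 rose by 1.37 and 1.28, and Nr0b2 fell by 1.35 in LWT. Of the 43 members, 32 matched RefSeq's promoter table (GRCm38.p6, 34 promoters of 300 bases, from 250 before to 50 after each start). CTGGGAA was in 7 of the 34 (20.6%) against 11.1% of all 32851 promoters, GTTAAT in 10 (29.4%) against 7.1%, TTGCGCA in 2 (5.88%) against 2.02%, and CAAAGTC, an HNF4 element, in 1 (2.94%) against 4.44%. A direct repeat 1, the arrangement that PPARα binds, was searched only as the exact letters AGGTCA, any 1 base and AGGTCA. It was in 0 of the 34 and in 13 (0.0396%) of all promoters. An exact match is so rare that 0 of 34 cannot tell whether members hold looser forms of the repeat, which were not searched. The 7 with CTGGGAA were C1ra, C6, F9, Fgb, Fgg, Masp2 and Tfpi. Of these, Fgb and Fgg rose in both genotypes, and C6 and F9 were called higher in LKO. By their brightest probes C1ra, Masp2 and Tfpi were called in neither.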

How the data were processed

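The deposited scanner tables give linear, background-subtracted spot intensities; per the file headers, the authors read the scans with version 10.10.1.1 of Agilent Feature Extraction. The authors' series table holds log2 values, which matched log2 median signals after quantile normalization (median difference 0.000254, 31367 probes). RNA input was 200 ng per array, labelled with Cy3, per the labels. Columns without a sample numbered 0.

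Of 62976 spots, 59305 were not controls and covered 56605 probes. Outlier spots were dropped, log2 intensities of a probe's spots averaged, and each array's 75th percentile subtracted. To be kept, a probe had to exceed background clearly on 4 or more of the 6 arrays of some group and have 3 or more values per group. This left 32037 probes, and the brightest of each gene gave 21331 genes. Between 26985 and 34202 probes per array lay well above background and 0 spots were saturated. No pair of arrays was identical. The number of arrays limits the precision: the median standard error was 0.13 for a difference and 0.19 for the interaction. Gene names are the array's; all 43 members matched symbols in RefSeq's table. Array positions are in mm9 and promoters in GRCm38.p6, and the builds were not mixed.

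Groups came from the labels. One mean per group was fitted to all 24 arrays with limma 3.58.1 (in R 4.3.3, reading files with version 1.17.8 of data.table), moderated by empirical Bayes with 2.18 prior and 20 residual degrees of freedom. There were 5 comparisons: CL316243 against vehicle in each genotype, their difference, and LKO against LWT with each treatment, with Benjamini-Hochberg adjustment over all genes within each. The fit was tested on simulated data. Alternatives were normexp background correction (offset 50), quantile normalization, no or a stricter filter (6 of 6), slide, array row and replicate number as blocks, only the arrays compared, the series table, the mean of probes, outlier spots kept, moderation with a trend, array weights, a required 1.5-fold change, and leaving out each array. Medians of bright genes and the fit per probe were added after the data were seen.

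The members and lists were chosen with earlier results of these data known. Members given in full are the 6 called with the largest change in each comparison, all called for the interaction or under vehicle, and F2, Fga, Fgb, Fgg, F7, Plg, Proc, C3, Hc, Cfb and C9. Other members are given by change and adjusted p. Of other genes, at most 4 of each list are named, those called with the largest change in LWT. Of the endothelial markers, Kdr and Tek, called in LKO, are named as well. A gene that this rule would name is not reported here.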

Additional observations from a re-analysis of the deposited data

Results flagged for a closer look

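In sets of 6 mice, the gap between the extreme mouse and its nearest neighbour was set against the whole range for the 20 members given in full. It exceeded Dixon's 95% critical value for 6 samples in 9 of 80 sets, where chance alone gives about 1 in 20, or 4. LKO vehicle replicate 6 was the highest mouse in 5 of these: Fga (gap 0.752 of the range), Fgb (0.672), C3 (0.654), Fgg (0.641) and F2 (0.626). The 75th percentile intensity of that array, 271.1, was the lowest of the 24. Without that array, 22 members were called for CL316243 in LKO, against 21 with it, beside 8408 and 8566 of the 21331 genes tested. The part of that intensity in these values was not tested.

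The other 4 were spread over groups. C2 was lowest in LWT CL316243 replicate 6 (0.69), at 5.88 against 6.10 for the next mouse. C9 was highest in LWT vehicle replicate 1 (0.693) and Plg in LWT vehicle replicate 3 (0.647). Vwf was lowest in LKO vehicle replicate 4 (0.692).

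The CL316243 effect differed between genotypes for 3 members by limma's interaction test, given as LKO effect less LWT effect: C2 by 0.42 and C6 by 0.48, both with the LKO mice relatively higher, and F3 by -1.88, with the LKO mice relatively lower.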

How the results depend on the processing

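The counts of members called were 19, 21, 3, 1 and 8 for CL316243 in LWT, CL316243 in LKO, the interaction, and the genotypes compared with vehicle and with CL316243. Requiring a 1.5-fold change left 3 for CL316243 in LWT, 6 in LKO, 1 for the interaction and 4 between genotypes with CL316243. Of all 21331 genes tested it left 3804, 3887, 807 and 1632 in the same comparisons. Array weights gave 6 for the interaction and 3 under vehicle, beside 2147 and 605 of the 21331 genes. LKO against LWT under CL316243 fell to 5 with no filter on dim probes and to 5 in a fit of only those arrays. Beside these stood 2498 of 37074 genes and 2180 of 21331 genes. With 1 array left out the counts ranged from 18 to 21, 18 to 23, 3 to 4, 1 to 1 and 6 to 9. Over all 21331 genes they ranged from 7317 to 8900, 7818 to 8855, 927 to 1526, 187 to 296 and 2829 to 3925. Among results called before or after the turn, signs turned for F2 in LWT (-0.14 in the authors' series table), Kng1 in LWT (-0.18 with quantile normalization, -0.20 in the series table) and LKO (-0.15 and -0.16), and, with the mean of the kept probes, for Masp1 in LWT (0.004) and LKO (0.57) and Plg in LKO against LWT under CL316243 (0.52); the cause was not tested. Other turns, such as F2 in LKO and C4b and Cfb in LWT under quantile normalization, involved no call. Of 52 called member results, 36 passed in the same direction in all settings with no fold requirement (13, or 12 for the interaction), and 44 with each array left out. With the replicate number as a block the counts were 19, 21, 3, 1 and 9, beside 8287, 8629, 1203, 265 and 3497 of the 21331 genes. Deviations from the group means correlated at a median r of 0.05 (-0.18 to 0.42) in the 36 same-numbered pairs of mice across groups. The median was -0.01 in the 180 pairs of other numbers. Of 24 arrays, 10 correlated best with an array of their own number, although such pairs were the minority. Mice of the same number mostly shared a slide, and replicate 5 lay on slide 3 in every group. Slide was not removed before these correlations, so slide and number cannot be told apart in them. The labels do not say what the numbers stand for, and whether they pair the mice was not settled. The Cfd differences are limited by its signal, near background on most LKO arrays.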
